A study of Mus musculus with 48 samples.

Results

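Dio3 and 7 other genes of thyroid hormone signaling were followed in mouse cortex, in 8 rows out of the 24444 genes of a normalised RNA-seq table of 48 samples. The genes are the deiodinases Dio3 and Dio2, the transporter Slco1c1, the cytosolic hormone-binding protein Crym, the receptors Thra and Thrb and the hormone-responsive genes Klf9 and Hr. Dio3 was chosen by its measured values, because it was lower in mutant than in WT mice at 12 months, so its values at that age are given as a description without a test, and the other 7 genes joined it for their place in the pathway. All 8 genes passed the filter on low values at every age.

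The 48 mice were male and on a C57BL/6J background. They were embryos of E14.5 or adults of 1, 6 or 12 months of age, and at each age 6 WT mice were compared with 6 Chd8 V986*/+ mice, which carry tandem stop codons in 1 copy of the chromatin remodeler gene Chd8, with the dissected cortex of a hemisphere sequenced from each mouse. Controls were littermates. The mutant allele was made by CRISPR/Cas9, came from a single male founder that was backcrossed, and is present in every cell of the animal from conception, so an effect seen in the cortex need not have begun there. Values are variance-stabilizing transformation (VST) values on a log2 scale, so that 1 unit stands for about 2-fold where a gene is well expressed and for more near the table's floor of 2.14. VST values are not scaled for transcript length, so levels were compared between samples and not between genes. The table holds no read counts, and the depth behind a single value is unknown.

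Chd8 itself separated the genotypes at every age, with no overlap, and differed by −0.63, −0.67, −0.64 and −0.54 log2 units at E14.5, 1, 6 and 12 months (limma adjp = 0.026, 3.0e-06, 1.1e-07 and 0.0026). Markers of pallial excitatory neurons were present in every sample, with a mean over 11 genes of 10.9 to 12.2. At E14.5, the mean of 22 midbrain, hindbrain and spinal cord markers spanned 3.34 to 7.17 in WT samples, with replicate 5 the highest. It spanned 3.38 to 4.72 in Chd8 V986*/+ samples, and the group means were 4.97 and 3.89. Genotype differences of the 20 tested markers ran from −2.17 to −0.24 (median −1.12), and 6 had an unadjusted limma p below 0.05. Those of the 11 pallial markers ran from −0.10 to 0.38 (median 0.32), and 4 had such a p. None of these markers passed the test across genes. The E14.5 differences of the 8 genes below are given without these markers in the model. At 1 month, the mean of 10 meningeal markers was 7.90 to 8.74 in WT and 6.68 to 8.60 in Chd8 V986*/+ samples. Each comparison of the 8 genes between genotypes or between ages was recomputed without each sample in turn. The difference between the genotypes in an age change was not. In tissue of mixed cells, fewer cells of a type and less RNA per cell cannot be told apart.

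Thyroid hormone reaches the brain mainly as the prohormone T4, which crosses the blood-brain barrier and enters glia through transporters such as the one encoded by Slco1c1. In astrocytes, the enzyme encoded by Dio2 removes an outer-ring iodine and makes the active hormone T3, and in neurons the enzyme encoded by Dio3 removes an inner-ring iodine and inactivates T4 and T3. T3 binds nuclear receptors encoded by Thra and Thrb, which sit on DNA with retinoid X receptors and recruit corepressors without hormone and coactivators with it. Dio3 is known for its high activity in fetal tissue and placenta, and lies at the end of an imprinted domain on mouse chromosome 12 in which it is expressed preferentially from the paternal copy.

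In mm9, Dio3 (ENSMUSG00000075707.4) lies on the plus strand at chr12:111517278-111519307, and Dio2 (ENSMUSG00000007682.5) lies on the minus strand at chr12:91962994-91976878. Thra spans chr11:98601952-98630320 and Thrb chr14:18493474-18870602. Slco1c1 spans chr6:141472907-141518241, Hr chr14:70952019-70973355, Klf9 chr19:23215716-23241401 and Crym chr7:127329894-127345625.

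The 250 bases before the transcription start were read for the genes with an entry in RefSeq's promoter windows (GRCm38.p6), namely Dio3, Dio2, Slco1c1, Klf9 and Thrb, 5 of the 8 genes. Windows of Thra, Hr and Crym were not analysed here. The windows of Dio3, Dio2 and the first start site of Thrb are shown because these genes took opposite courses with age. Capitals mark the core promoter motif TATAAA, the Sp1-type motif GGGCGG, which reads CCGCCC when it lies on the other strand, and the nuclear receptor half-site AGGTCA. Each was searched on both strands, and no other motif was searched.
Dio3, chr12:110278980-110279229, plus strand: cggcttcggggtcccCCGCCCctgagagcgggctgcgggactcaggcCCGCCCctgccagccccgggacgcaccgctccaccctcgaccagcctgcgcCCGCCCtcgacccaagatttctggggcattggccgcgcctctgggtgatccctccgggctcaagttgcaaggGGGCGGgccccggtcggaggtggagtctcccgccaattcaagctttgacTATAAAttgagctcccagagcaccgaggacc
Dio2, chr12:90739039-90739288, minus strand: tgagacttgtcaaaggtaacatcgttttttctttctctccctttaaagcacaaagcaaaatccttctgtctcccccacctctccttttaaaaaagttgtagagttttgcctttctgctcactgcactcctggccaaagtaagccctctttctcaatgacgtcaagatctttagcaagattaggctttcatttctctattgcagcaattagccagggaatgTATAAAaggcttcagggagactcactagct
Thrb, chr14:17660710-17660959, plus strand: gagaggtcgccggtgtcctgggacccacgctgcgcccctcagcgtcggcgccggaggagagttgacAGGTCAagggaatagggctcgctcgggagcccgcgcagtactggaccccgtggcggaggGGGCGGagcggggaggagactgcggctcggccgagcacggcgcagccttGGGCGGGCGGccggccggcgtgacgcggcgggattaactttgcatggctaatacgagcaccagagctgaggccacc
Both deiodinase windows held a TATAAA, which began at position −31 from the start in Dio3 and −30 in Dio2, a motif present in 12.4% of the 32851 windows of the same length. They differed in base composition, with 69.6% GC and 21 CG dinucleotides in Dio3 against 41.6% GC and 2 CG in Dio2, where the median window had 52.4% GC and 6 CG. The Dio3 window held 4 GGGCGG, a number reached by 4.09% of windows, and the Dio2 window held none. The Thrb window had 71.6% GC, 30 CG, 3 GGGCGG of which 2 overlap, and 1 AGGTCA that began at position −184, a motif found in 14% of windows. The window of the second Thrb start site (44% GC) held a TATAAA that began at position −167, and Slco1c1 (42.8% GC) and Klf9 (59.6% GC) had none of the 3 motifs.

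Dio3 expression was highest in the embryo in both genotypes, by group mean. Ordered by mean, the groups ran from Chd8 V986*/+ at E14.5 (7.16 ± 0.12, SD, n = 6) and WT at E14.5 (6.95 ± 0.23), through WT at 1 month (6.33 ± 0.21), WT at 12 months (6.25 ± 0.27), Chd8 V986*/+ at 1 month (6.20 ± 0.21) and Chd8 V986*/+ at 6 months (6.10 ± 0.28), to WT at 6 months (5.61 ± 0.30) and Chd8 V986*/+ at 12 months (5.44 ± 0.22). The 2 embryonic groups differed by less than the WT SD, and the 4 groups in the middle of this order and the 2 groups at its lower end differed between neighbours by less than 1 SD. The steps from the embryonic groups to the middle and from the middle to the lower end were larger than the SD of either neighbour.

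**Figure D1:**
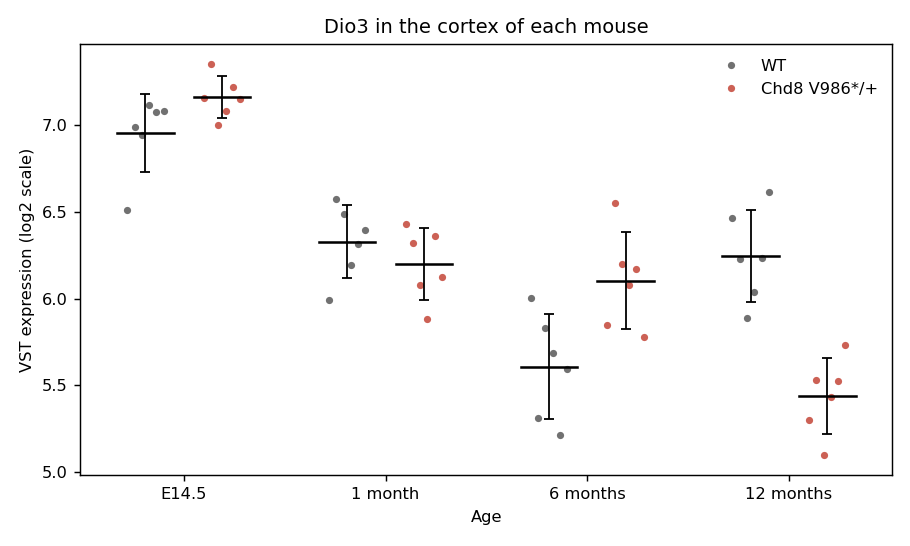
VST expression of Dio3 (log2 scale, vertical axis) in each mouse at 4 ages, WT in grey and Chd8 V986*/+ in red, with mean and SD bars of 6 mice. The embryos lie highest on average, the genotypes lie apart without overlap at 12 months, and at 6 months the Chd8 V986*/+ mean of 6.10 lies above the WT mean of 5.61.

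At E14.5, the lowest, median and highest Dio3 values were 6.51, 7.03 and 7.12 in WT and 7.002, 7.15 and 7.36 in Chd8 V986*/+ embryos. Of the mutant embryos, 4 of 6 lay above every WT embryo. The difference was 0.21 log2 units (standard error 0.11) and did not pass the test across genes (limma adjp = 0.98, unadjusted p = 0.073). Of all genes, 0.00593% passed, and none was one of the 8. The exact two-sided permutation test of Dio3 alone, not adjusted for the number of genes, gave p = 0.039. The embryos of replicates 1 to 3 gave 0.36 and those of replicates 4 to 6 gave 0.058, and without the lowest WT embryo the difference was 0.12.

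At 1 month, Dio3 ran from 5.99 through a median of 6.36 to 6.58 in WT and from 5.88 through 6.22 to 6.43 in Chd8 V986*/+ mice. The genotypes overlapped, with a difference of −0.13 (standard error 0.12, limma adjp = 0.81, exact permutation p = 0.30) and a 95% interval from −0.39 to 0.13. None of the 8 genes passed at this age, where 0.139% of all genes did.

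At 6 months, Dio3 was 5.21, 5.64 and 6.00 in WT (lowest, median and highest) and 5.78, 6.12 and 6.55 in Chd8 V986*/+ mice. Of the Chd8 V986*/+ mice, 4 of 6 lay above every WT mouse. Dio3 differed by 0.50 (standard error 0.16), a mutant level of 141% of WT, and both sets of replicates gave close values, 0.48 for replicates 1 to 3 and 0.51 for replicates 4 to 6. The difference did not pass the test across 17256 genes (limma adjp = 0.43), and the exact permutation test of Dio3 alone gave p = 0.013. Across all genes, 0.0927% passed at this age, and none of the 8 thyroid hormone genes did. With the mean of 10 astrocyte markers in the model, an alternative chosen after seeing the data, the Dio3 difference was 0.33. The endothelial mean, the hypothalamus mean and Dlk1 were also put in the model at this age, and those Dio3 differences are not given here.

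At 12 months, the age on which Dio3 was picked, the order of the genotypes was opposite. The lowest, median and highest values were 5.89, 6.23 and 6.62 in WT and 5.10, 5.48 and 5.73 in Chd8 V986*/+ mice. No mouse of the mutant group reached the lowest WT value. The difference was −0.81 (standard error 0.14), a mutant level of 57.1% of WT, with −0.89 in replicates 1 to 3 and −0.73 in replicates 4 to 6. Leaving out each mouse in turn gave −0.88 to −0.73. Dio3 was picked on these same mice, so the replicate sets and this range describe the values and are no support for the difference. Over all genes at this age, 0.0463% passed the threshold that chose Dio3 and 0.868% had no overlap between genotypes. Among the 8 genes, Dio3 was inside that threshold, and those with the next largest differences, both outside it, were Dio2 (−0.37) and Crym (−0.28).

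**Figure D2:**
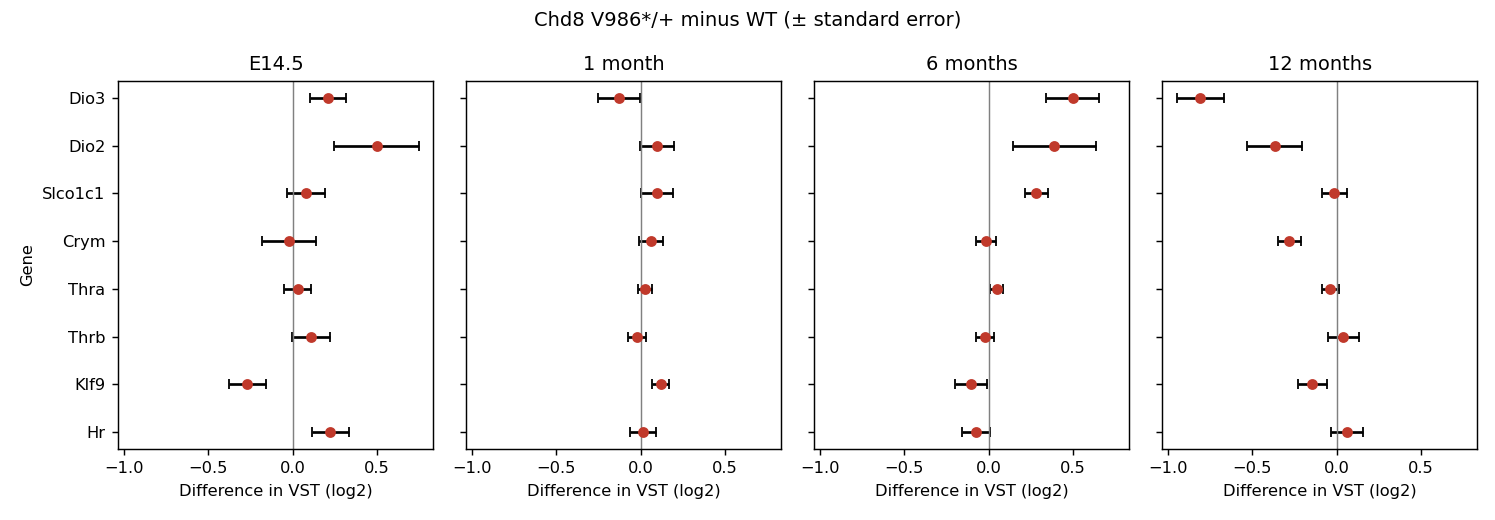
Difference in VST expression between Chd8 V986*/+ and WT mice (log2, horizontal axis) for the 8 genes at each age, with bars for the standard error of the fit. Dio3 runs from 0.21 at E14.5 and −0.13 at 1 month to 0.50 at 6 months and −0.81 at 12 months, whereas Thra and Thrb stay within 0.11 of 0 at all 4 ages.

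Dio2, whose enzyme makes T3, rose more than any other of the 8 genes between the embryo and the young adult. WT embryos had 4.70, 5.48 and 5.99 (lowest, median and highest) and Chd8 V986*/+ embryos 5.20, 5.89 and 6.29. At 1 month, the values were 12.5, 12.7 and 13.2 in WT and 12.6, 12.9 and 13.1 in Chd8 V986*/+ mice. The rise of 7.44 (standard error 0.25) in WT and 7.04 (standard error 0.18) in Chd8 V986*/+ cortex took place while Dio3 fell by 0.63 in WT (standard error 0.14, limma adjp = 0.00027) and by 0.96 in Chd8 V986*/+ cortex (standard error 0.13). Across all genes, 85.5% passed the test between E14.5 and 1 month in WT and 86.5% in Chd8 V986*/+ mice, and 40.1% and 40.9% did so with a difference of at least 1. In WT, 43.9% of all genes rose and 41.7% fell, and in Chd8 V986*/+ mice 44.5% rose and 42.1% fell, the shares beside which the list counts for these ages stand. All 8 thyroid hormone genes passed in both genotypes, 7 of them higher at 1 month and Dio3 lower, and 6 rose by at least 1.

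Between the genotypes, Dio2 differed with the same sign as Dio3 at E14.5, 6 and 12 months, with overlapping groups at every age. It differed by 0.50 (standard error 0.25, limma adjp = 0.98) at E14.5, by 0.10 (standard error 0.10, adjp = 0.83) at 1 month and by 0.39 (standard error 0.24, adjp = 0.77) at 6 months. None of these passed the test. At 12 months, Dio2 was 11.3, 12.1 and 12.6 in WT and 11.4, 11.6 and 12.0 in Chd8 V986*/+ mice, a difference of −0.37 (standard error 0.16), with 3 of 6 WT mice above every Chd8 V986*/+ mouse. The SD of Dio2 at 6 months was 0.62 in WT, the largest of the 8 groups, and 0.44 in Chd8 V986*/+ mice. The mean of 10 astrocyte markers, cells in which Dio2 is mainly expressed, rose from 8.57 to 13.0 between E14.5 and 1 month in WT, and all 10 markers rose.

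**Figure D3:**
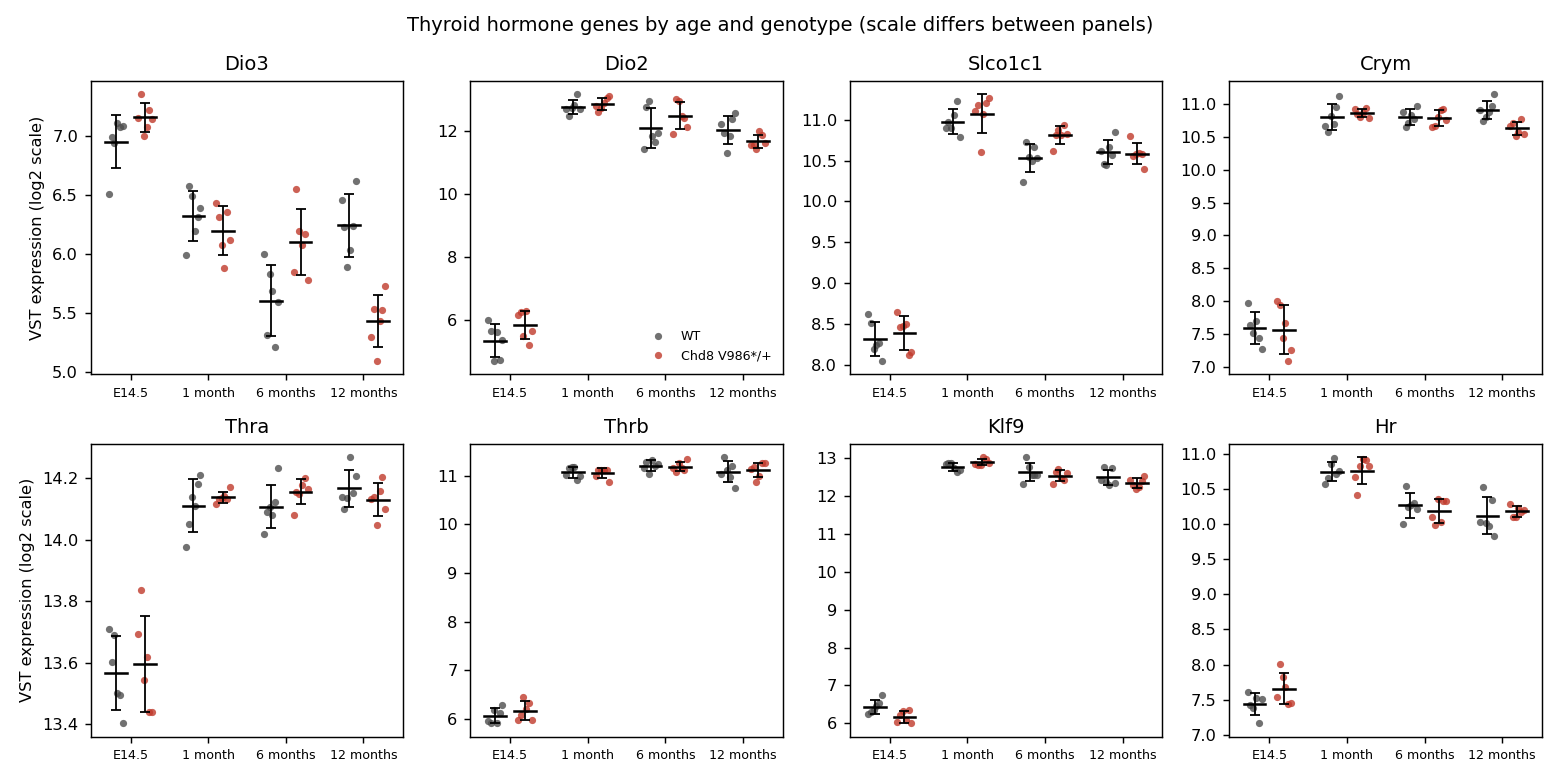
VST expression (log2 scale, vertical axes that differ between panels) of the 8 genes in each of 48 mice, WT in grey and Chd8 V986*/+ in red, with mean and SD bars of 6 mice. In 7 of the 8 panels the 12 embryos lie lowest, and in the Dio3 panel they lie highest on average.

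Slco1c1 encodes OATP1C1, a T4 transporter of brain endothelium and astrocytes. Its level rose by 2.66 (standard error 0.09) in WT and 2.68 (standard error 0.09) in Chd8 V986*/+ cortex between E14.5 and 1 month. At 6 months, it was 10.2, 10.5 and 10.7 in WT and 10.6, 10.8 and 10.9 in Chd8 V986*/+ mice, with 5 of 6 Chd8 V986*/+ mice above every WT mouse. The difference of 0.28 (standard error 0.07) did not pass across genes (limma adjp = 0.27), and its exact permutation p was 0.0065. Of the 10 astrocyte markers, 3 had an unadjusted p below 0.05 at this age, with a median difference of 0.12, as had 7.59% of all genes. Of the 10 endothelial markers, 1 did, with a median difference of 0.17. In the other direction, 8 of the 10 oligodendrocyte markers did, with a median difference of −0.23, and 1 of the 10 choroid plexus markers, with −0.49. None of these markers passed the threshold, and the oligodendrocyte and choroid plexus means were not put in the model. With the astrocyte mean in the model the Slco1c1 difference was 0.23, and with the endothelial mean it was 0.22 (limma adjp = 0.60 and 0.55). With Dlk1 in the model it was 0.35 and with the mean of 12 hypothalamus markers 0.28, and it passed in both (limma adjp = 0.035 and 0.084). All 4 models were chosen after seeing the data. At E14.5 and 1 month, Slco1c1 differed by 0.08 and 0.10 (limma adjp = 0.98 and 0.81), and at 12 months by −0.01 (standard error 0.07).

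Crym encodes μ-crystallin, which binds T3 in the cytosol. It rose between E14.5 and 1 month by 3.20 in WT and 3.29 in Chd8 V986*/+ cortex and did not pass the test between genotypes at E14.5, 1 month or 6 months, where the differences were −0.02, 0.06 and −0.02 (limma adjp = 1.0, 0.86 and 0.98). At 12 months, Crym was 10.7, 10.9 and 11.1 in WT and 10.5, 10.6 and 10.8 in Chd8 V986*/+ mice. Of the Chd8 V986*/+ mice, 5 of 6 lay below every WT mouse, and the difference was −0.28 (standard error 0.07).

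The list of transporters that carry thyroid hormone across membranes held 8 genes, Slco1c1 included, and split between rise and fall. In WT, 4 rose and 4 fell from E14.5 to 1 month, and in Chd8 V986*/+ cortex 4 rose and 3 fell. The largest rises in WT were those of Slco1a4 (4.35), an organic anion transporter of brain vessels, Slco1c1, and Slc7a8 (2.34), an amino acid transporter, and the largest fall was that of Slc16a10 (−1.28), an aromatic amino acid transporter. No transporter passed the test between genotypes at any age.

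The receptors differed in their course with age. Thra was present at 13.4, 13.6 and 13.7 in WT embryos (lowest, median and highest) and at 13.98, 14.12 and 14.21 in WT mice of 1 month, a rise of 0.55 (standard error 0.06), and rose by 0.54 in Chd8 V986*/+ cortex. Thrb was 5.91, 6.03 and 6.28 in WT embryos and 10.9, 11.1 and 11.2 at 1 month, a rise of 5.02 (standard error 0.08), and rose by 4.89 in Chd8 V986*/+ cortex. Neither overlapped between E14.5 and 1 month in either genotype. The share of all genes without overlap between these ages was not counted, and 85.5% passed the test in WT and 86.5% in Chd8 V986*/+ mice. With quantile normalization between samples, the rise of Thra was 0.04 in WT (limma adjp = 0.59) and 0.01 in Chd8 V986*/+ cortex (limma adjp = 0.85), so its call rests on the scaling.

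Neither receptor passed the test between genotypes. Thra differed by 0.03, 0.03 and 0.05 at E14.5, 1 and 6 months, and the interval at 6 months ran from −0.03 to 0.13. Thrb differed by 0.11, −0.02 and −0.02, and the interval at 6 months ran from −0.13 to 0.09. At 12 months, the differences were −0.04 (standard error 0.05) for Thra and 0.04 (standard error 0.09) for Thrb, with overlapping genotypes.

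Of 13 retinoid X receptors, corepressors and coactivators that work with the thyroid hormone receptors, 6 rose and 4 fell in WT from E14.5 to 1 month, with a median difference of 0.18. The largest differences were those of Gps2 (−1.07) and Tbl1x (−0.66), both part of the corepressor complex, and of Ncoa1 (0.90), a coactivator, and Rxrg (0.73), a retinoid X receptor. In Chd8 V986*/+ cortex, 7 rose and 4 fell. No gene of the list passed the test between genotypes at any age.

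Klf9 encodes a zinc-finger factor induced by T3 in neurons. It was 6.24, 6.41 and 6.74 in WT embryos and 6.00, 6.15 and 6.36 in Chd8 V986*/+ embryos, a difference of −0.27 (standard error 0.11, limma adjp = 0.98, exact permutation p = 0.026), with 4 of 6 mutant embryos below every WT embryo. Replicates 1 to 3 gave −0.11 and replicates 4 to 6 gave −0.43. At 1 month, Klf9 was 12.6, 12.8 and 12.9 in WT and 12.8, 12.9 and 13.0 in Chd8 V986*/+ mice, and the difference was 0.12 (standard error 0.05, adjp = 0.50, exact permutation p = 0.065). The rise between these ages was 6.34 (standard error 0.10) in WT and 6.73 (standard error 0.07) in Chd8 V986*/+ cortex. The test of the difference between these rises gave 0.39 (standard error 0.13, unadjusted p = 0.0040, limma adjp = 1.0), where 0 genes passed and 4.6% of all genes had an unadjusted p below 0.05. At 6 and 12 months, Klf9 differed by −0.10 and −0.15, with overlapping genotypes.

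Hr encodes a nuclear corepressor that binds thyroid hormone receptors and is itself induced by T3. It was 7.16, 7.47 and 7.60 in WT embryos and 7.43, 7.61 and 8.002 in Chd8 V986*/+ embryos. The difference of 0.22 (standard error 0.11) did not pass across genes (limma adjp = 0.98, exact permutation p = 0.071). At 1, 6 and 12 months, Hr differed by 0.01, −0.08 and 0.06, with overlapping genotypes. It rose from E14.5 to 1 month by 3.32 in WT and 3.11 in Chd8 V986*/+ cortex.

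Of 17 further genes described as induced by T3 in rodent brain, 13 rose and 3 fell in WT from E14.5 to 1 month, with a median difference of 2.48, where 85.5% of all genes passed and 43.9% rose. The largest rises were those of Nrgn (7.99), which encodes the calmodulin-binding postsynaptic protein neurogranin, Mbp (7.69), a myelin protein, Rasgrp1 (5.94), a Ras activator, and Rasd2 (5.65), a striatal GTPase. In Chd8 V986*/+ cortex, 13 rose and 4 fell, with a median of 2.45. The 10 oligodendrocyte markers rose too in WT, by a median of 4.998, and their part in the result was not tested. Of 6 genes described as repressed by T3, 4 fell and 2 rose in WT, the largest differences being those of Dgkg (5.11), a diacylglycerol kinase, Marcksl1 (−3.13), an actin-regulating protein, Syce2 (−2.67), a synaptonemal complex protein, and Odf4 (−0.88), a sperm tail protein.

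Between genotypes, no T3-induced gene passed at any age. Marcksl1 was the only gene of the T3-repressed list to pass, at 1 month, where it was lower in Chd8 V986*/+ mice by 0.22 log2 units (−0.22, standard error 0.03, limma adjp = 0.037), as did 0.139% of all genes at that age. The median differences of the T3-induced list were 0.06, 0.00, −0.05 and −0.01 at E14.5, 1, 6 and 12 months, against 0.00 over all genes tested at each age.

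**Figure D4:**
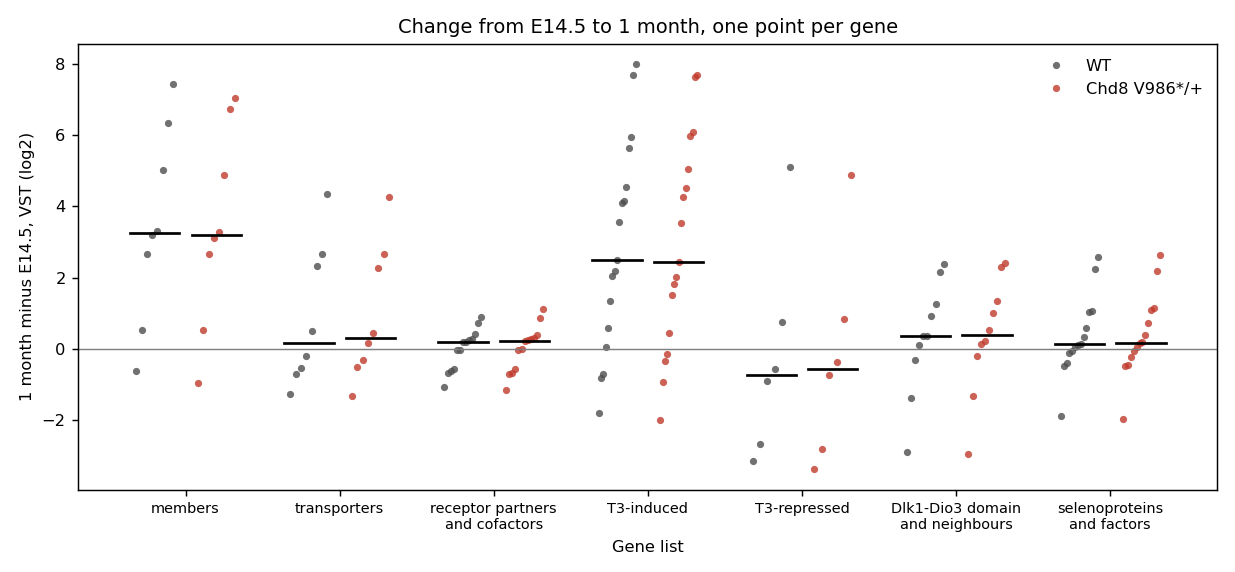
Change in VST expression from E14.5 to 1 month (log2, vertical axis), with 1 point per gene and a line at the median of each list, WT in grey and Chd8 V986*/+ in red. The medians of the members and of the T3-induced list (2.48 in WT) lie above those of the other lists, and the medians of the genotypes lie close together in every list.

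Apart from Dio3, the genes moved less in each step after 1 month than from E14.5 to 1 month. In WT, Dio3 changed by −0.63 from E14.5 to 1 month, by −0.72 from 1 to 6 months and by 0.64 from 6 to 12 months. In Chd8 V986*/+ cortex, its changes over the same steps were −0.96, −0.10 and −0.67. From 1 to 6 months, 14.8% of all genes passed in WT and 21.8% in Chd8 V986*/+ mice, and 7.91% and 10.8% passed with a fall. In WT, 4 of the 8 genes fell, Dio3 by 0.72 (standard error 0.14, limma adjp = 0.0016), Dio2 by 0.67 (standard error 0.25, adjp = 0.084), Hr by 0.48 (standard error 0.10, adjp = 0.0024) and Slco1c1 by 0.44 (standard error 0.09, adjp = 0.0023). The Dio2 call was lost in several alternatives, such as without WT replicate 1 of 6 months (−0.54, adjp = 0.20). In Chd8 V986*/+ cortex, 3 genes fell, Hr by 0.57 (standard error 0.09, adjp = 0.000101), Klf9 by 0.36 (standard error 0.07, adjp = 0.000882) and Slco1c1 by 0.26 (standard error 0.09, adjp = 0.064). Dio3 differed there by −0.10 (standard error 0.12, adjp = 0.67) and Dio2 by −0.38 (standard error 0.18, adjp = 0.16).

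The difference between the genotypes in the change from 1 to 6 months was tested itself. It was 0.63 for Dio3 (standard error 0.19, unadjusted p = 0.0021, limma adjp = 1.0), with the other 7 genes between −0.22 and 0.29. None of the 17311 genes passed this test, and 3.36% had an unadjusted p below 0.05, Dio3 among them.

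From 6 to 12 months, the course of Dio3 was opposite in the genotypes. Its choice used the 12-month end of this step, so no test is given. The order of the genotypes at the other end, 6 months, did not pass across genes (limma adjp = 0.43). Dio3 went from 5.61 to 6.25 in WT, by 0.64 (standard error 0.14), and from 6.10 to 5.44 in Chd8 V986*/+ mice, by −0.67 (standard error 0.13). The ages overlapped in WT and not in Chd8 V986*/+ mice, and the share of all genes without such overlap was not counted. Of the other 7 genes, none passed in WT, where 0.0115% of all genes did, and Dio2 passed in Chd8 V986*/+ mice, where 1.88% did. Dio2 fell there by 0.82 (−0.815, standard error 0.18, limma adjp = 0.026), from 11.9 to 13.0 among mice of 6 months to 11.4 to 12.0 among mice of 12 months, and with all 48 samples in the fit its adjp was 0.11. In WT, Dio2 differed by −0.06 (standard error 0.25, adjp = 0.96) over the same ages.

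Dio3 closes the imprinted Dlk1-Dio3 domain of chromosome 12, and 10 genes of the domain and beside it were examined. In WT from E14.5 to 1 month, 6 of the 10 rose and 3 fell. Dlk1, the paternally expressed gene at the other end of the domain, fell by 2.90, and Dio3os, a noncoding RNA transcribed away from Dio3 on the opposite strand, fell by 1.38 (−1.38), while Meg3, a maternally expressed noncoding RNA, rose by 2.16 and Begain, a postsynaptic density gene beside the domain, rose by 2.40. In Chd8 V986*/+ cortex, 6 rose and 2 fell. None of the 10 genes passed between genotypes at any age. At 12 months, 6 of the 10 were lower and 4 higher by their means, from −0.41 for Dio3os (standard error 0.28), at chr12:111513594-111516278, to 0.20 for Wdr25 (standard error 0.08), a gene beside the domain. Dlk1 differed by −0.22 (standard error 0.31), Meg3 by 0.10 (standard error 0.15) and Begain by 0.12 (standard error 0.06). Wdr25 and Rian (−0.18, standard error 0.08), a maternally expressed noncoding RNA, had an unadjusted p below 0.05, as had 11.6% of all genes at this age, and both are named here after their values were seen. Wdr25 also differed by 0.07, 0.20 and 0.27 at E14.5, 1 and 6 months.

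The genes whose deviations from their group means were most like those of Dio3 over the 48 samples, among 15600 genes, were Spcs2 (Pearson r = 0.65), a subunit of the signal peptidase complex, Dlk1 (r = 0.64), Irs4 (r = 0.62), an insulin receptor substrate, Nnat (r = 0.60), another imprinted gene, and Gpr101 (r = 0.60), an orphan receptor. The points share library and dissection, so these values describe the samples and carry no p. For Dlk1, r was 0.17 at E14.5 and 0.79, 0.69 and 0.66 at 1, 6 and 12 months (12 samples each), 0.64 in both sets of replicates, and 0.59 without the 2 samples farthest from the median of Dlk1. Spearman's rho was 0.60. The mean of 12 hypothalamus markers, a region in which Dlk1 and Gpr101 are also expressed, had r = 0.37 with Dio3, and r = 0.22 without the 2 farthest samples. The means of the other marker lists had r from −0.25 (pallial excitatory neurons) to 0.21 (astrocytes) over the 48 samples. Without the 2 samples farthest from each median, these were −0.33 and 0.19. Within single ages the other lists ranged more widely. Their r ran from −0.45 (striatum) to 0.31 (choroid plexus) at E14.5, and from −0.09 (striatum) to 0.46 (choroid plexus) at 1 month. It ran from −0.76 (pallial excitatory neurons) to 0.54 (astrocytes) at 6 months. At 12 months, it ran from −0.58 (midbrain, hindbrain and spinal cord) to 0.47 (striatum). For the hypothalamus mean, r was 0.02, 0.49, 0.54 and 0.26 at the 4 ages. At 12 months, the hypothalamus mean was 4.12 to 5.26 in WT and 3.89 to 5.17 in Chd8 V986*/+ samples, and with it in the model the Dio3 difference was −0.81. With Dlk1 in the model the difference was −0.76. Both models were chosen after seeing the data.

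**Figure D5:**
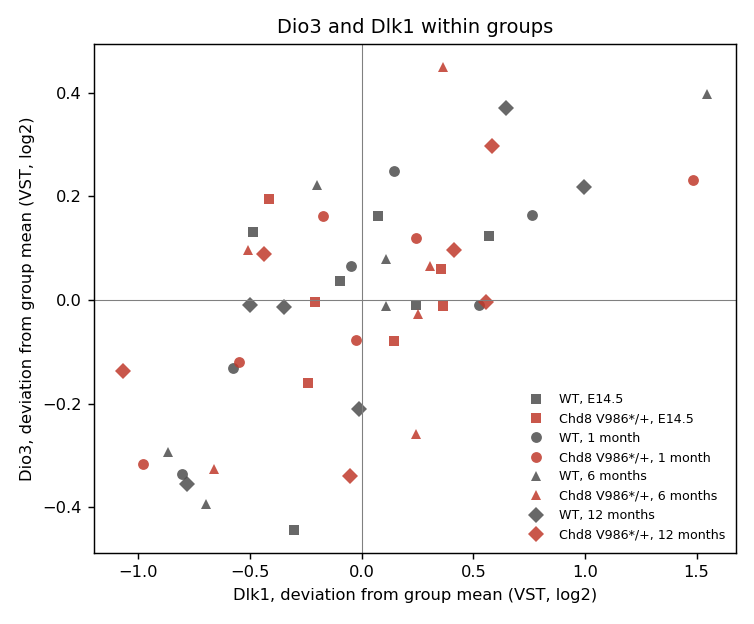
Deviation of Dio3 from its group mean (vertical axis) against that of Dlk1 (horizontal axis), both in VST units on a log2 scale, with 1 point per mouse, colour for genotype and shape for age. The 48 points rise together with r = 0.64, and the E14.5 points (squares, r = 0.17) are the most loosely related.

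The other 7 members were far less like Dio3 in these deviations, with r from −0.28 for Hr to 0.18 for Dio2. Over the 8 group means, they ran against Dio3, with r from −0.85 for Thrb to −0.77 for Slco1c1, a value set by the step between the embryo and the adult. The genes closest to Dio3 over the 8 group means were Atp6v0e (r = 0.98), a subunit of the vacuolar proton pump, Timmdc1 (r = 0.98), an assembly factor of respiratory complex I, Map2k3 (r = 0.98), a kinase of the p38 pathway, Nek5 (r = 0.98) and 1700102P08Rik (r = 0.97). Atp6v0e had means of 8.80, 8.57, 8.28 and 8.48 in WT and 8.88, 8.52, 8.35 and 8.17 in Chd8 V986*/+ mice at the 4 ages.

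Deiodinases are selenoproteins, and 14 of 20 listed selenocysteine insertion factors and other brain selenoproteins were in the table. In WT from E14.5 to 1 month, 8 rose and 3 fell, with the largest differences in Selenom (2.57), an endoplasmic reticulum selenoprotein, Selenop (2.25), a selenium carrier, Txnrd1 (−1.87), a thioredoxin reductase, and Gpx4 (1.07), a lipid peroxidase. None passed between genotypes at any age. At 12 months, their median difference was −0.07, against 0.00 over all genes tested.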

How the data were processed

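RNA was sequenced from the cortex of 48 mice, 6 per genotype at each of 4 ages. The authors filtered and trimmed the reads, aligned them to mm9 with STAR 2.5.2b, quantified transcripts with Salmon 0.11.3 and modelled the counts with DESeq2 1.22.2, correcting for a batch that is not given in the sources used here. The study's methods name KAPA stranded reagents and the labels a TruSeq kit. The values deposited by the authors are VST values on a log2 scale, and count-based tests were not used here. The means of replicates 1 to 3 and 4 to 6 were equal for every gene (largest difference 3.38e-14), so a difference between these sets had been removed. The fits do not count this removal, so their residual degrees of freedom are slightly overstated and standard errors and p-values may be slightly too small. The most frequent value, 2.1433 (15.7% of all values, with 6.06% below it), was taken as the floor.

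Groups came from the labels. Genotypes were compared within each age, and ages within each genotype, with limma 3.58.1 (R 4.3.3, intensity trend) over genes with a mean at least 0.5 above the floor, and a Benjamini-Hochberg adjusted p (adjp) below 0.1 counted as called. The limma fits were tested on simulated data. Each gene alone was also tested by exact permutation (two-sided), for which the smallest p of 6 against 6 mice is 0.0022. These permutation p-values were not adjusted for the number of genes or ages. Mice are separate animals, and the precision of a value is the SD between 6 mice, since the depth per gene is unknown. The members, the gene lists and the tests were chosen with earlier results of these data known. Named genes are the 8 members, the list genes called between genotypes, up to 4 genes per list with the largest called difference from E14.5 to 1 month in WT, the 5 genes most like Dio3 by each measure (mean at least 1.5 above the floor), and Chd8. Alternatives were a replicate block, the set of replicates or the read depth as a covariate, one fit of all 48 samples, other filters and variance priors, other scalings, and leaving out each sample. Samples were not left out in the tests of a difference between genotypes in an age change. Marker means and Dlk1 as covariates were added after seeing the data. Gene coordinates are mm9, and sequences come from RefSeq on GRCm38.p6. Summaries were made in Python 3.11.15 (pandas 2.3.3, numpy 2.4.6, scipy 1.17.1), and plots with matplotlib 3.10.9.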

Additional observations from a re-analysis of the deposited data

Results flagged for a closer look

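In 64 groups of 6 mice (8 genes in 8 groups), 2 groups held a sample far from the others, where chance flags about 1 in 20 groups. The lowest Dio3 value among WT embryos, 6.511 in replicate 1, was separated from the next at 6.944 by 0.715 of the group's range. The lowest Slco1c1 value among Chd8 V986*/+ mice of 1 month, 10.61 in replicate 3, was separated from the next at 11.07 by 0.694 of the range.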

How the results depend on the processing

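Over the alternatives, 1701 of 1772 tested differences of the 8 genes kept their direction and their side of the threshold. Of 227 counts of called genes, 223 stayed within 1.5 times the reported count. All 252 differences without a test moved by less than the spread between mice, an outcome nearly fixed in advance. The replicate block, the set of replicates, one fit of all samples, the filters and the variance priors leave a difference of group means unchanged. Leaving out 1 of 6 mice cannot move it that far, so this count says little about stability. The count of called genes at 6 months was 1 instead of 0, with Slco1c1 called, with the replicate block (adjp = 0.030) and with the hypothalamus marker mean (adjp = 0.084) or Dlk1 (adjp = 0.035) in the model, and adjp ran from 0.030 to 0.60 over the alternatives; the count of called genes from 6 to 12 months in Chd8 V986*/+ mice, Dio3 left out, was 0 instead of 1 in one fit of all 48 samples, where Dio2 lost its call (adjp = 0.11). The cause was not tested. Same-numbered WT and mutant samples deviated together only in part (mean r of 0.23, 0.018, 0.045 and −0.034 at E14.5, 1, 6 and 12 months, with 4, 0, 1 and 0 of 6 pairs over 0.1), so the numbers were not taken to pair the mice. The replicate block gave 3 instead of 4 called genes from 1 to 6 months in WT, where Dio2 had adjp = 0.12, and the same counts in the comparisons other than this one and that at 6 months.

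Differences that changed sign were close to 0 and not called. At 1 month, Hr was −0.073 with the meningeal mean. At 6 months, Thrb was 0.042 with the astrocyte mean and 0.0030 with Dlk1, and Crym was 0.012 with the endothelial mean. From 1 to 6 months in WT, Thra was 0.0017 with read depth and 0.0077 with centred samples. Hr from 6 to 12 months in Chd8 V986*/+ mice was 0.012 with quantile normalization. The difference of age changes was 0.014 for Thra from E14.5 to 1 month with centred samples and 0.0024 for Thrb from 1 to 6 months with read depth. Leaving out each mouse in turn gave −0.020 to 0.060 for Thra and −0.11 to 0.073 for Crym at E14.5, −0.053 to 0.016 for Thrb and −0.021 to 0.083 for Hr at 1 month, and −0.058 to 0.00039 for Thrb and −0.048 to 0.018 for Crym at 6 months. With age it gave −0.030 to 0.016 for Thra and −0.044 to 0.065 for Crym from 1 to 6 months in WT, −0.19 to 0.12 for Dio2 from 6 to 12 months in WT, and −0.049 to 0.026 for Hr from 6 to 12 months in Chd8 V986*/+ mice. Counts of called genes without each mouse ran from 3 to 4 in WT and 2 to 4 in Chd8 V986*/+ mice from 1 to 6 months and did not move in the other comparisons. The Dio3 difference at 12 months ran from −0.88 to −0.73 over all alternatives. Dio3 was picked on the values of that age, so this range is a description and no support for the difference. Without read counts, what depth limits cannot be given.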
